A study of Rattus norvegicus with 16 samples.

Results

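The genes described are 10 members of the cyclic AMP pathway: 5 membrane-bound adenylyl cyclases (Adcy1, Adcy2, Adcy3, Adcy8 and Adcy9), both main catalytic subunits of protein kinase A (Prkaca and Prkacb), its regulatory subunits Prkar1a and Prkar2b, and the transcription factor Creb1. They were chosen by name, from the adenylyl cyclases other than Adcy5, subunits of protein kinase A, and Creb1, and they are 10 of the 33294 genes in the count table. All 10 were found and all 10 passed the filter on low counts. Poly(A) RNA from tissue labelled as central amygdala, a GABAergic output nucleus of the amygdala, was sequenced from adult rats whose perinatal exposure was to the synthetic opioid fentanyl or to saline. The libraries came from 6 fentanyl males, 2 fentanyl females, 6 saline males and 2 saline females. All 16 rats were sampled as adults on the day after a last session of a kind that the labels give only as IVSA, so the saline rats share that history. The labels name no strain, age, dose or litter, so p-values measure the spread between these animals, some of which may be littermates.

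Adenylyl cyclases make cyclic AMP from ATP. The membrane-bound isoforms are switched on by stimulatory G proteins and some of them by calcium and calmodulin. Some, but not all, are inhibited by the G proteins that opioid receptors use. Cyclic AMP binds the regulatory subunits of protein kinase A and frees the catalytic subunits, which phosphorylate many neuronal proteins, among them CREB, a factor that binds cyclic AMP response elements in promoters. In cultured cells and in rat brain, prolonged opioid exposure followed by withdrawal is known to raise cyclase activity.

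Library totals ranged between 12879701 and 22426428 counts. All values below are CPM, counts divided by the library's total and scaled to a common library size, and are not divided by transcript length, so levels are compared between libraries for each gene and not between genes. All 15 markers of central amygdala neurons were found, with none at 0 in any library. Of the 15, 9 had a fold change above 0 and 6 below, with a median log2 fold change of 0.0539, and 0 were called. Their sum had a median of 1410 CPM in fentanyl and 1140 CPM in saline libraries. The most abundant of them were Scn4b, Meis2 (means of 292 CPM in fentanyl and 237 CPM in saline libraries) and Tac1 (187 and 134 CPM). Tac1 is also among the striatal markers below, so the sums of these lists are not independent. Means were near each other for Prkcd (15.4 CPM in fentanyl and 18.3 CPM in saline libraries), Sst (104 and 97.7 CPM) and Crh (4.68 and 4.22 CPM). Larger differences were seen in Dlk1 (5.3 and 10.9 CPM), Cyp26b1 (12.1 and 19.4 CPM), Sema3c (32.1 and 46.6 CPM) and, in the other direction, Scn4b (694 and 438 CPM). Markers of striatal medium spiny neurons, the neighbouring GABAergic cells, summed to 2680 to 5600 CPM over 16 genes in fentanyl libraries and 1180 to 4400 CPM in saline libraries. Of those 16 genes, 15 were tested, all 15 had a fold change above 0, with a median log2 fold change of 0.466, 0 were called, and Ido1 was at 0 in some libraries. Myelin genes summed to 8260 to 35200 CPM in fentanyl libraries and 7460 to 33800 CPM in saline libraries, and 11 of 12 had a fold change below 0. Sums of cortical and basolateral glutamatergic markers were 52.3 to 90.7 CPM (median 85.8) in fentanyl and 39.7 to 195 CPM (median 62) in saline libraries. The 195 CPM was that of saline male replicate 3. Of the 7 tested, 5 had a fold change below 0, with a median of -0.587. Thalamic and hypothalamic markers summed to 55.8 to 71.4 CPM in fentanyl and 60.1 to 89.2 CPM in saline libraries, with a median log2 fold change of -0.278. Sums of microglial markers were 251 to 359 CPM in fentanyl and 258 to 444 CPM in saline libraries. Those of endothelium were 190.2 to 425 CPM in fentanyl and 147 to 255 CPM in saline libraries. Of the microglial markers 10 of 10 and of the astrocyte markers 9 of 10 had a fold change below 0, with medians of -0.251 and -0.164, and 0 were called. In bulk tissue, fewer cells of a type and less RNA per cell cannot be told apart, and the part of tissue make-up in the results below was not tested. A covariate fit given with them uses means of the striatal and myelin markers and cannot tell these apart either.

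None of the 10 genes passed the test between fentanyl and saline rats. With both sexes together, 0 of 10 passed an adjusted p of 0.05 (edgeR quasi-likelihood test with sex as a term, Benjamini-Hochberg over 17856 genes), against 14 genes or 0.0784% of all genes tested, and 0 of 10 had an unadjusted p under 0.05, against 7.27% of all genes. Log2 fold changes were above 0 for Adcy3, Adcy9, Prkacb and Prkar2b and below 0 for the other 6, with a median of -0.0415 against -0.00937 over all genes. The 95% intervals of the 10 genes differed in width, narrow for Prkaca and Prkar1a and very wide for Adcy1 and Adcy8. They cover the spread between animals in this fit and not the partial confounding of exposure with library number described below. No gene of the 10 had fentanyl values that all lay above or all lay below the saline values, a separation that 0.101% of all genes showed in 8 against 8 libraries.

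**Figure D1:**
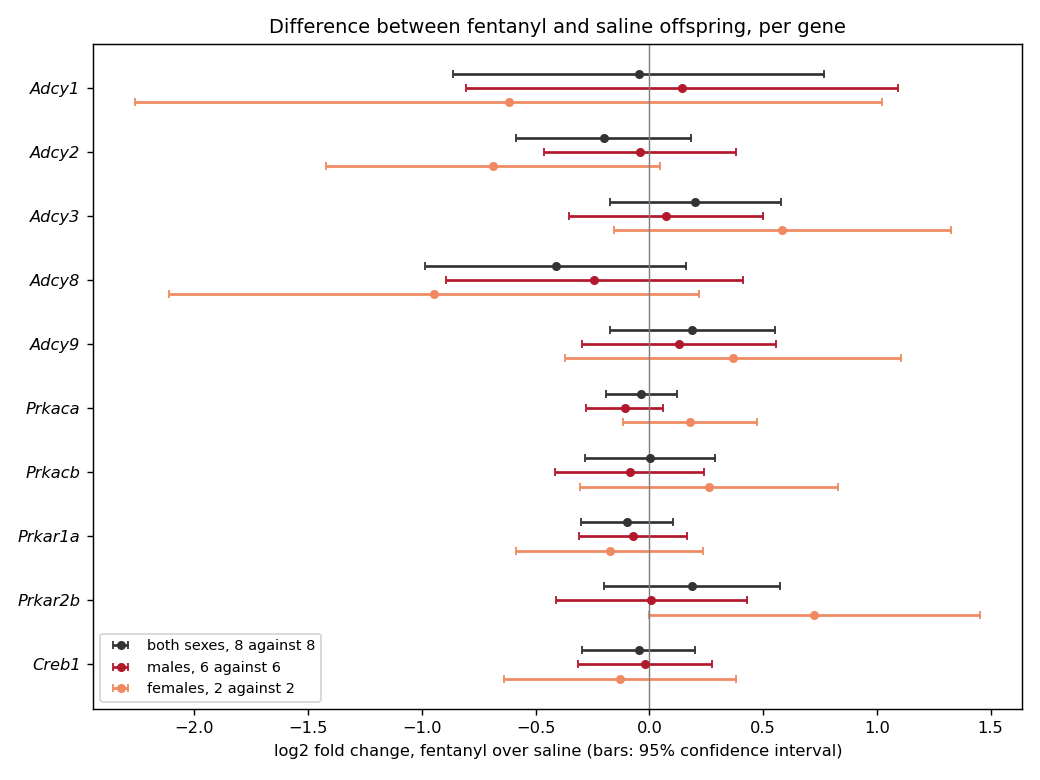
Log2 fold changes (x axis) of the 10 genes in fentanyl against saline rats, with 95% intervals, for both sexes, males and females. Every interval crosses 0, and the intervals of Adcy1 are the widest.

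Among the cyclases, Adcy1 and Adcy8 are the isoforms that calcium and calmodulin stimulate, and both are known for roles in synaptic plasticity. Adcy1 had a lowest value of 3.31, a median of 26.4 and a highest of 38.2 CPM in the 8 fentanyl libraries, against 12.4, 22.9 and 61.7 CPM in the 8 saline libraries. The lowest value was that of fentanyl male replicate 2, with 46 counts, and the highest that of saline female replicate 2, with 983 counts, an 18.7-fold range that was the widest of the 10 genes. The log2 fold change was -0.05 ± 0.39 (SE, adjusted p = 0.981, edgeR), and it was 0.12 without fentanyl male replicate 2 and 0.28 without saline female replicate 2. The direction of Adcy1 therefore rested on single libraries. Fentanyl male replicate 2 also had the highest mitochondrial share of counts, 17.67%, where no other library was above 12.78%, and its endothelial marker sum of 425 CPM and myelin sum of 35200 CPM were the highest of the fentanyl libraries. Whether these bear on its Adcy1 value was not tested.

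Adcy8 was the least counted of the 10 genes, with 50 to 266 counts a library. It had a lowest, median and highest value of 3.59, 6.64 and 9.20 CPM in fentanyl libraries, against 2.90, 9.71 and 12.3 CPM in saline libraries. The fentanyl values all lay within the range of the saline ones. Its log2 fold change of -0.41 ± 0.27 (SE) was the largest in size of the 10, with an interval of -0.99 to 0.16 and an adjusted p of 0.784 (edgeR). In females it was 4.13 and 3.59 CPM in fentanyl rats and 5.18 and 9.73 CPM in saline rats. These values did not overlap, as was the case for 48.8% of all genes in 2 against 2 females.

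Adcy2 encodes an isoform that calcium does not stimulate and that G protein beta-gamma subunits can enhance. It had 44.3, 80.0 and 95.9 CPM (lowest, median, highest) in fentanyl libraries, against 51.7, 95.9 and 105 CPM in saline libraries. The groups overlapped, and the log2 fold change was -0.20 ± 0.18 (SE, adjusted p = 0.829, edgeR). Adcy3, an isoform found in neuronal primary cilia and in odorant signalling, had 47.7, 73.8 and 111 CPM in fentanyl libraries, against 43.2, 59.6 and 105 CPM in saline libraries. Adcy9, a broadly expressed isoform that forskolin hardly activates, had 72.0, 115 and 154 CPM in fentanyl libraries, against 60.4, 92.4 and 144 CPM in saline libraries. In both genes 1 fentanyl library, female replicate 2, lay above every saline library and the rest overlapped. Their log2 fold changes were 0.20 ± 0.18 and 0.19 ± 0.17 (SE), each with an adjusted p of 0.829 (edgeR). Where RefSeq places it in the newer build, Adcy3 overlaps Dnajc27, which had 986 to 3311 counts, so shared reads may have been counted for neither or for the other gene, since the strand setting is not given in the sources used here.

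**Figure D2:**
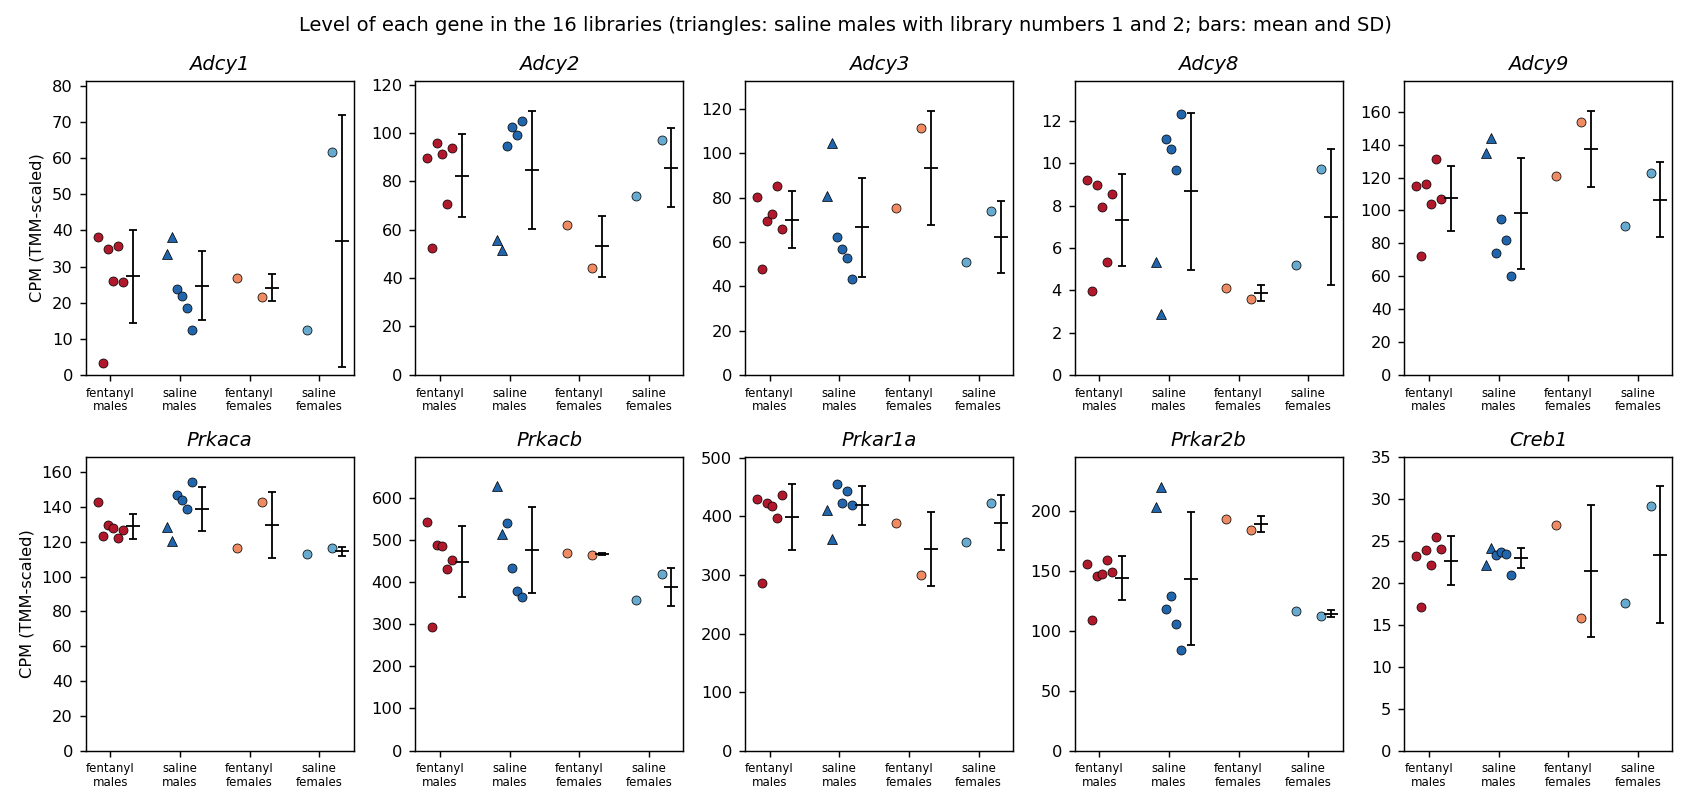
Level of each gene (CPM, y axis) in every library, with fentanyl males left of saline males and fentanyl females left of saline females. Points are libraries, triangles are saline males with library numbers 1 and 2, and bars are the mean and SD. Fentanyl and saline libraries overlap in all 10 genes, and fentanyl male replicate 2 stands at the bottom of Adcy1.

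Of the catalytic subunits, Prkaca varied least of the 10 genes, with a coefficient of variation of 9.56% over the 16 libraries, and Prkacb had 18.2%. Prkaca, the widely expressed alpha catalytic subunit, had 116, 127 and 143 CPM in fentanyl libraries, against 113, 134 and 154 CPM in saline libraries, and its highest library was only 1.37-fold above its lowest. The fentanyl values lay within the saline range. Its log2 fold change of -0.04 ± 0.07 (SE, adjusted p = 0.921, edgeR) had an interval of -0.19 to 0.12, or 0.875-fold to 1.09-fold. That interval holds for this fit only. The log2 fold change was -0.11 ± 0.08 in males, 0.18 ± 0.14 in females and 0.10 ± 0.09 over both sexes without saline males 9 to 12 (SE). Prkacb, the beta catalytic subunit with several splice forms in brain, had 294, 467 and 543 CPM in fentanyl libraries, against 357, 427 and 629 CPM in saline libraries. Fentanyl male replicate 2 again held the lowest value, and the other fentanyl libraries overlapped with the saline ones. Its log2 fold change was 0.001 ± 0.14 (SE, adjusted p = 0.999, edgeR). The ratio of Prkacb to Prkaca CPM within a library, which carries no length scaling and is compared only between libraries, was 3.52 ± 0.515 in fentanyl and 3.47 ± 0.83 in saline rats (SD, n = 8 each).

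The regulatory subunits set where the kinase sits and how much cyclic AMP it needs. Prkar1a encodes the type I alpha subunit, mostly cytosolic and found in most cells. It had 287, 407 and 437 CPM in fentanyl libraries, against 356, 421 and 456 CPM in saline libraries. The low fentanyl libraries, male replicate 2 and female replicate 2, lay below every saline library. On the log2 scale the fold change was -0.10 ± 0.10 (SE, interval -0.30 to 0.10, adjusted p = 0.835, edgeR). Prkar2b encodes the type II beta subunit, abundant in neurons of the striatum and other forebrain regions and held at membranes by anchoring proteins. It had 108, 152 and 193 CPM in fentanyl libraries, against 83.7, 117 and 220 CPM in saline libraries. The fentanyl values lay within the saline range, which was the wider of the pair, with a coefficient of variation of 16.6% in fentanyl and 35.8% in saline libraries. The log2 fold change was 0.19 ± 0.18 (SE, interval -0.20 to 0.57, adjusted p = 0.836, edgeR).

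The ratio of Prkar2b to Prkar1a shows how the regulatory subunits moved against each other. It was 0.41 ± 0.0955 in fentanyl and 0.337 ± 0.141 in saline libraries (SD, n = 8 each). The fentanyl males lay between 0.341 and 0.401. The saline males split around them, with 0.493 and 0.609 in the libraries numbered 1 and 2 in the labels and 0.199 to 0.304 in those numbered 9 to 12. In females the ratio was 0.496 and 0.611 in fentanyl rats and 0.326 and 0.265 in saline rats.

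**Figure D3:**
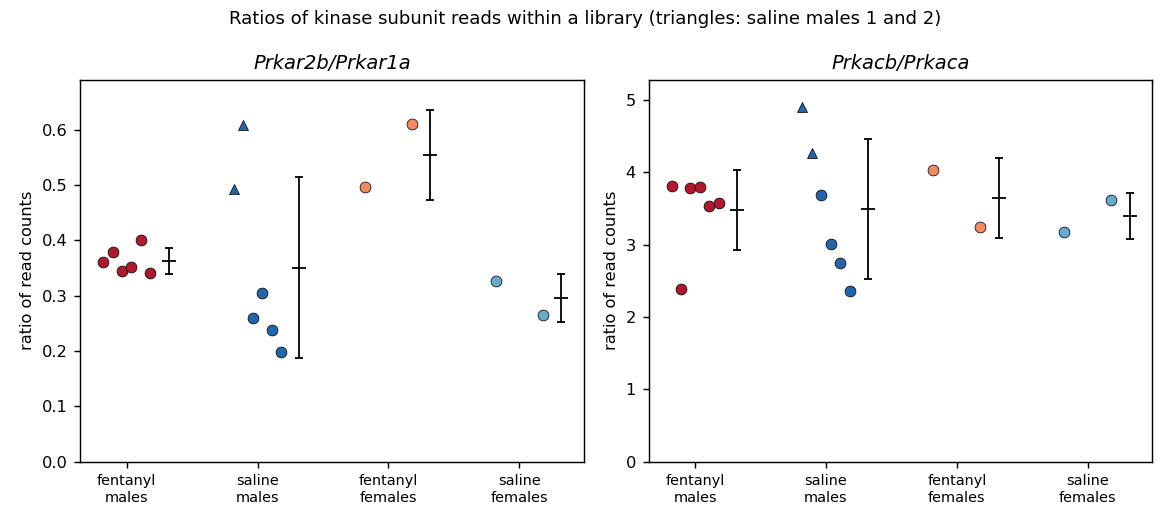
Ratios of CPM within each library for Prkar2b over Prkar1a and for Prkacb over Prkaca, by group, with fentanyl males left of saline males and fentanyl females left of saline females. Points are libraries, triangles are saline males 1 and 2, and bars are the mean and SD. For Prkar2b over Prkar1a the saline males fall at 0.493 and 0.609 or at 0.199 to 0.304, on either side of the fentanyl males.

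Creb1, the nuclear target of the kinase, had 15.8, 23.6 and 27.0 CPM in fentanyl libraries, against 17.6, 23.4 and 29.2 CPM in saline libraries. All but 2 fentanyl libraries, male replicate 2 and female replicate 2, lay within the saline range. On the log2 scale the change was -0.05 ± 0.12 (SE, interval -0.29 to 0.20, adjusted p = 0.938, edgeR). Its widest spread was within the females, with 27.0 and 15.8 CPM in fentanyl and 17.6 and 29.2 CPM in saline rats. RefSeq places Mettl21a, with 115 to 219 counts a library, over part of Creb1, and the same limit on strand holds there.

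In males alone 0 of 10 genes passed the test, against 0.0392% of all genes, and 0 of 10 separated the 6 fentanyl from the 6 saline males, against 0.375% of all genes. The median log2 fold change of the 10 genes was -0.0303, against -0.00514 over all genes. In females the fentanyl libraries are numbered 1 and 2 in the labels and the saline libraries 10 and 11, a division that also separates saline males, as described below, so exposure and library number cannot be told apart there. With 2 against 2 rats, 0 of 10 passed, as did 0% of all genes (0 genes by edgeR, 20 by DESeq2). An unadjusted p under 0.05 was reached by 14.3% of all genes and by 0 of 10. The nearest was Prkar2b, with 193 and 184 CPM in fentanyl females and 116 and 112 CPM in saline females, for which the log2 fold change was 0.73 ± 0.34 (SE, unadjusted p = 0.0511, adjusted p = 0.350, edgeR). Adcy2 followed, with 62.0 and 44.3 CPM in fentanyl females and 74.0 and 97.2 CPM in saline females, and its log2 fold change was -0.69 ± 0.35 (SE, adjusted p = 0.365, edgeR). The female values did not overlap in 6 of 10 genes. Adcy3, Prkaca, Prkacb and Prkar2b were higher and Adcy2 and Adcy8 lower in fentanyl females. Such a separation was shown by 48.8% of all genes in 2 against 2 rats, near the 6 of 10.

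No gene of the 10 passed the test of whether the exposure effect differed between the sexes, and 0% of all genes did (0 genes by edgeR, 4 by DESeq2), with an unadjusted p under 0.05 in 8.23% of all genes and in 0 of the 10. The differences with the smallest p, females minus males, were 0.72 ± 0.40 for Prkar2b and 0.29 ± 0.16 for Prkaca on the log2 scale (SE, adjusted p = 0.570 for both, edgeR). Females against males, with exposure as a term, gave 0 of 10 past the threshold against 0.056% of all genes, and 0 of 10 with an unadjusted p under 0.05 against 2.52%. Of the 10 genes 4 of the 10 had a value above 0, with a median of -0.0712 against -0.00301 over all genes. With 4 females in all, the intervals of these comparisons are wide.

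Variation among libraries of a group was larger than the exposure effect and followed a shared pattern. Adcy3, Adcy9 and Prkar2b were high in the same libraries. The Spearman correlation over the 16 libraries was 0.944 for Adcy3 with Adcy9 and 0.874 for Adcy3 with Prkar2b. Adcy2 and Adcy8 formed an opposite pair, with a correlation of 0.924 between them and of -0.685 for Adcy2 with Prkar2b, -0.606 for Adcy2 with Adcy3 and -0.600 for Adcy8 with Prkar2b. The same pairs had 0.833 (Adcy3 with Adcy9) and 0.857 (Adcy2 with Adcy8) within the 8 fentanyl libraries and 0.833 and 0.810 within the 8 saline libraries. The opposite pairs were weaker within the fentanyl libraries, at -0.429 for Adcy2 with Prkar2b, -0.405 for Adcy2 with Adcy3 and -0.286 for Adcy8 with Prkar2b, and were -0.738, -0.714 and -0.548 within the saline libraries. These are descriptions of 45 pairs over libraries that differ in depth and in marker sums, and the part of either in the correlations was not tested. The Spearman correlation with the mean level of the striatal marker list was 0.776 for Adcy3, 0.750 for Adcy9 and 0.782 for Prkar2b, and -0.891 for Adcy2, -0.868 for Adcy8 and -0.665 for Prkar1a. Adcy1, Prkacb and Creb1 lay between 0.0647 and 0.371, and Prkaca was at -0.406. Other marker lists went with the same genes. With the myelin list the correlation was -0.865 for Prkar2b, -0.809 for Adcy3, -0.782 for Prkacb, -0.671 for Adcy9 and 0.694 for Adcy2. With the microglial list it was -0.824 for Prkar2b and 0.876 for Adcy2, and with the astrocyte list -0.700 for Prkar2b and 0.871 for Adcy2. With the thalamic and hypothalamic list it was 0.862 for Adcy8, 0.741 for Adcy2, 0.718 for Prkaca and 0.671 for Prkar1a. With the central amygdala list it was 0.688 for Prkacb and 0.541 for Prkaca.

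**Figure D4:**
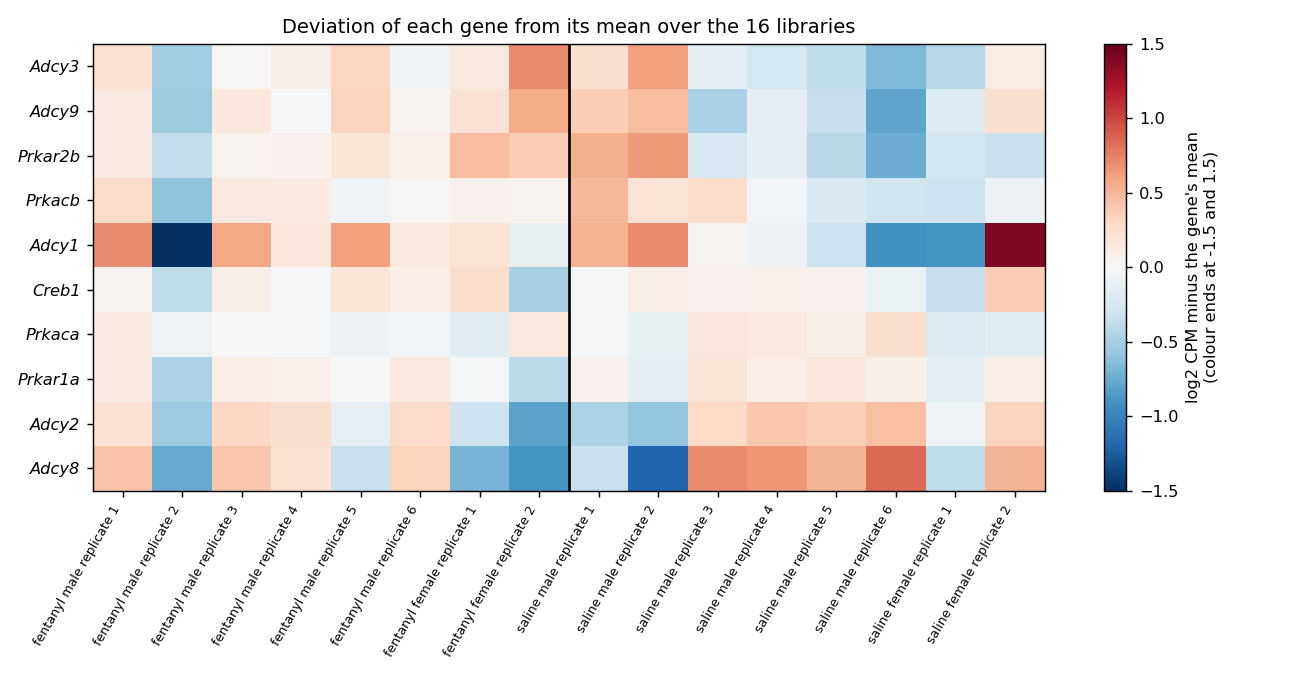
Deviation of each gene's log2 CPM from its mean over the 16 libraries, as colours (blue below, red above, ending at -1.5 and 1.5), with fentanyl libraries left of saline libraries. In all saline males Adcy3, Adcy9 and Prkar2b share one sign and Adcy2 and Adcy8 the other, and the saline males split by library number. Several fentanyl libraries lack this opposition: all of these genes are above their means in male replicates 1 and 3 and below them in male replicate 2.

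The saline males showed this split by the library numbers in their labels, whose meaning the labels do not give. Values of 8 of the 10 genes did not overlap between the saline males numbered 1 and 2 and those numbered 9 to 12, against 44.8% of all genes, and no test was made of this division. Adcy1, Adcy3, Adcy9 and Prkar2b were higher and Adcy2, Adcy8, Prkaca and Prkar1a lower in numbers 1 and 2. Prkar2b was 212 ± 11.8 CPM in numbers 1 and 2 (SD, n = 2) and 109 ± 19.3 CPM in numbers 9 to 12 (SD, n = 4). Adcy9 was 139 ± 6.31 and 77.7 ± 14.3 CPM, Adcy2 53.7 ± 2.73 and 100 ± 4.51 CPM, and Adcy8 4.12 ± 1.74 and 11 ± 1.09 CPM, in the same order. The striatal marker sum was 3178 and 4404 CPM in numbers 1 and 2 and 1178 to 2003 CPM in numbers 9 to 12. The fentanyl males had library numbers 1 to 6, so number and exposure are partly confounded in males. In females, with numbers 1 and 2 in fentanyl rats and 10 and 11 in saline rats, they are wholly confounded and cannot be told apart.

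Which saline males were compared decided the sign and the call of several genes. Without saline males 1 and 2, Adcy8 fell by 0.67 ± 0.19 (SE, adjusted p = 0.0450, edgeR) and Prkar2b rose by 0.50 ± 0.11 (SE, adjusted p = 0.0165, edgeR) on the log2 scale in fentanyl rats of both sexes. These were 2 of 10 genes, in a fit that called 1226 genes or 6.9% of all genes. Without saline males 9 to 12, 0 of the 10 genes passed over both sexes, where 0.0229% of all genes did, and in males Prkar2b was lower in fentanyl rats by the test, at -0.56 ± 0.13 (SE, adjusted p = 0.0273, edgeR). That fit called 5.47% of all genes in males. The same fit gave 0.72 ± 0.16 for Prkar2b in females (SE, adjusted p = 0.0383, edgeR), where 2.84% of all genes were called, with nearly the same fold change as in all libraries and a smaller SE. In it the exposure effects of females minus males differed for Prkar2b by 1.28 ± 0.20, for Adcy2 by -1.30 ± 0.34 and for Adcy8 by -1.79 ± 0.56 on the log2 scale (SE, adjusted p = 0.00296, 0.0217 and 0.0471, edgeR), 3 of 10 genes against 16.4% of all genes. With limma voom and sample quality weights on all 16 libraries, Adcy3 (0.38 ± 0.11, adjusted p = 0.0463) and Prkar2b (0.41 ± 0.11, adjusted p = 0.0407) passed over both sexes, among 1031 genes or 5.77% of all genes. DESeq2 called 0 of the 10, and 0.488% of all genes. With striatal and myelin list means as covariates 0 of the 10 passed, and Adcy2 was 0.15, Adcy8 0.28 and Prkar2b -0.01, each with the opposite sign.

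Promoter windows from RefSeq (build GRCr8, newer than the build of the counts) were searched for the cyclic AMP response element, the site that CREB binds, because levels of some of these genes varied together across libraries. Windows run over 300 bases, with 250 before and 50 after the start of the gene, and 9 windows were found for 8 of the genes. Adcy3 and Adcy8 had none in the table. The full element TGACGTCA was in 0 of the 9 windows, against 1.83% of all 33469 windows. Its shorter core TGACG, or CGTCA on the other strand, both parts of the full element, was in 4 of the 9 windows, against 21.2% of all windows. The windows below are shown because Adcy9 and Prkar2b had alike levels but not alike windows, and because those of Creb1 and Prkaca hold several cores. Creb1 had another window, at chr9:73414978-73415277, which holds no core and is not shown. Capitals mark each core. The Creb1 window shown is at chr9:73397259-73397558 on the plus strand, with cores at 80 and 59 bases before the start and 8 after. That of Prkaca is at chr19:41083140-41083439 on the minus strand, with cores 193 and 79 bases before it. Adcy9 is at chr10:11645595-11645894 on the plus strand, with a core 60 bases before it, and Prkar2b at chr6:54381362-54381661 on the minus strand, with none. A match describes letters in these windows and not binding.
Creb1: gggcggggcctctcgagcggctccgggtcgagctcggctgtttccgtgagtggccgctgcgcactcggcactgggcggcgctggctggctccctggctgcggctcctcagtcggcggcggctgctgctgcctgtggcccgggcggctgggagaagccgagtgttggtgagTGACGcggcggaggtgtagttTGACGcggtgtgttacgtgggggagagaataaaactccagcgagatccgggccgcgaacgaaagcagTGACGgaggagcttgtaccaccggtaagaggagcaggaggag
Prkaca: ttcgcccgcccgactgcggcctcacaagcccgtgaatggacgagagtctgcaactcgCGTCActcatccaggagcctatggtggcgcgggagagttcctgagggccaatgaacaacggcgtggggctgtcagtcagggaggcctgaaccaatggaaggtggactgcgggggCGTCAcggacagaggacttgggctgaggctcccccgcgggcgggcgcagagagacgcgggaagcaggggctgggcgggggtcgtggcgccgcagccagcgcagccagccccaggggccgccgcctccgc
Adcy9: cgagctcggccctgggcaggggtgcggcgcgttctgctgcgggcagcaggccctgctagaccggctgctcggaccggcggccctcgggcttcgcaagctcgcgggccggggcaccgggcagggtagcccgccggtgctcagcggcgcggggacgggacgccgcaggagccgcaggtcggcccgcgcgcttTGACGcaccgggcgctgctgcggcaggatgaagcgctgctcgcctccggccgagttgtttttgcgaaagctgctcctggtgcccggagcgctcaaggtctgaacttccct
Prkar2b: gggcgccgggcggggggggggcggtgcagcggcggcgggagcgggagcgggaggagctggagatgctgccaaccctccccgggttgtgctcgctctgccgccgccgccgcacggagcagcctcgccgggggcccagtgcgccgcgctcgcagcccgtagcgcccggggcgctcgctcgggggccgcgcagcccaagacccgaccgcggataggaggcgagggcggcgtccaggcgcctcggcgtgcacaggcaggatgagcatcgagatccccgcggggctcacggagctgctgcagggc

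The genes whose levels were most like each member's over the 16 libraries were ranked by Spearman correlation among 13412 named genes. Prkar2b was most like Cacng3 (0.985), a subunit of voltage-gated channels and AMPA receptor complexes, then Akap1 and Akap5 (0.979 each), which encode anchoring proteins that bind protein kinase A. Adcy9 was most like Adcy5 (0.974), the main cyclase of striatal neurons, and Lingo3 (0.974). Adcy3 was most like Sipa1l1 (0.982), Adcy2 most like Rcbtb1 (0.974) and Msi2 (0.971), and Adcy8 most like Iqsec3 (0.965). Prkacb was most like Gpr101 and the synaptic vesicle gene Syn2 (0.971 each), and Prkar1a most like Sh3gl2 (0.976), which encodes endophilin A1. Adcy1 was most like Cnot1 (0.959), Prkaca most like Cacna2d2 (0.944), and Creb1 most like Atp6v0a2 (0.912), the loosest match of the 10.

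The rest of the pathway was read from 9 lists with 97 entries, of which 92 were tested. None of the 92 passed the test, against 0.0784% of all genes, and 5 had an unadjusted p under 0.05, near the 7.27% of all genes. Of the 92, 45 had a log2 fold change above 0 and 47 below, with a median of -0.008 against -0.00937 over all genes. The smallest adjusted p of the lists was that of Adcy10, the soluble cyclase that bicarbonate activates.

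Adcy10 averaged 13.9 ± 3.66 CPM in fentanyl libraries and 7.73 ± 3.14 CPM in saline libraries (SD, n = 8 each). It ran over 7.76 to 18.9 CPM in fentanyl and 3.91 to 14.2 CPM in saline libraries, with 4 fentanyl libraries above every saline one and 4 saline libraries below every fentanyl one. The log2 fold change was 0.89 ± 0.21 (SE, unadjusted p = 6.955e-04, adjusted p = 0.226, edgeR), and between 0.79 and 1.02 when each library was left out in turn. In males the log2 fold change was 1.10 (adjusted p = 0.216, edgeR) and in females 0.27 (adjusted p = 0.749, edgeR). The female values overlapped, at 17.6 and 10.2 CPM in fentanyl and 8.81 and 14.2 CPM in saline rats. Adcy10 passed with DESeq2 (adjusted p = 0.0160), with limma voom (adjusted p = 0.00559) and without saline males 1 and 2 (adjusted p = 0.0490, edgeR). Its adjusted p in edgeR missed the threshold elsewhere, at 0.226 with RLE factors, 0.248 with no filter, 0.329 with no sex term, 0.433 with the covariates and 0.999 without saline males 9 to 12. The log2 fold change stayed above 0, at 0.69 ± 0.25 with the covariates and 0.76 ± 0.27 without saline males 9 to 12 (SE). That last fit called 0.0229% of all genes. Adcy5 was 561 ± 148 CPM in fentanyl and 452 ± 198 CPM in saline libraries (SD, n = 8 each), and its log2 fold change was 0.29 ± 0.24 (SE, adjusted p = 0.824, edgeR).

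Upstream of the cyclases, 3 of 4 genes in the stimulatory G protein list had a value above 0, with a median of 0.22. The 1 below 0 was Gnas, at -0.27 ± 0.16 on the log2 scale (SE, adjusted p = 0.764, edgeR). Gnas had 686 ± 162 CPM in fentanyl and 827 ± 247 CPM in saline libraries (SD, n = 8 each). Ric8b was at 0.14 ± 0.13 (SE). Gnal, the olfactory-type alpha subunit used in striatal neurons, was at 0.38 ± 0.21 and Gng7, its gamma partner, at 0.30 ± 0.25 on the log2 scale (SE). Among the 16 phosphodiesterases, the enzymes that break cyclic AMP down, 6 were above and 10 below 0, with a median of -0.0861. Pde10a, known from striatal medium spiny neurons, had 918 ± 257 CPM in fentanyl and 627 ± 299 CPM in saline libraries (SD, n = 8 each), with 0.55 ± 0.26 as its log2 fold change (SE, adjusted p = 0.686, edgeR). Gnal, Gng7 and Pde10a are themselves abundant in striatal neurons, whose marker sum had a median of 3430 CPM in fentanyl and 2260 CPM in saline libraries. The part of tissue make-up in these values was not tested. In the covariate fit Gnal was at 0.14, Gng7 at -0.13 and Pde10a at -0.02. Its striatal covariate is a mean of markers from the same libraries, so that fit cannot tell make-up from expression.

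Of the other protein kinase A subunits and inhibitors 3 of 6 were above 0, including Prkar1b at 0.03 ± 0.13, while the inhibitor gene Pkib, at 0.502 to 1.41 CPM in fentanyl and 0.690 to 3.02 CPM in saline libraries, was at -0.48 ± 0.29 (SE). Anchoring proteins, 13 of 15 tested, had 5 above and 8 below 0 and a median of -0.0105, with Akap13 at -0.25 ± 0.15 and Map2, a dendritic protein that also anchors the kinase, at -0.07 ± 0.14 (SE). Other cyclic AMP effectors, 7 of 9 tested, had a median of -0.157, with Rapgef4 (Epac2, an exchange factor for Rap) at -0.32 ± 0.18 (SE). All of these had adjusted p above the threshold in the edgeR fit.

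Downstream, the 12 genes of the CREB family and its coactivators divided 6 above and 6 below 0. Sik1, a kinase that restrains the coactivators of CREB and is itself a CREB target, ran over 5.46 to 8.96 CPM in fentanyl and 6.86 to 13.4 CPM in saline libraries, with -0.41 ± 0.14 as its log2 fold change (SE, adjusted p = 0.526, edgeR). Camk4, a nuclear kinase that phosphorylates CREB, was at 0.30 ± 0.22 (SE). Of 22 known CREB targets 21 were tested, with 9 above and 12 below 0 and a median of -0.0358. Dio2 was at -0.20 ± 0.12 and Penk, the enkephalin precursor gene, at 0.32 ± 0.36 (SE). Among 8 substrates of protein kinase A, 7 were above 0 with a median of 0.113. Arpp19 was at 0.48 ± 0.19 (SE, adjusted p = 0.600, edgeR) and Ppp1r1b, which encodes a phosphatase inhibitor abundant in striatal neurons, at 0.56 ± 0.24 (SE, adjusted p = 0.654, edgeR). The genes named from these lists, other than Gnas and Ric8b, were taken for the smallest p or the highest level in each list. Of these, 9 passed without saline males 1 and 2 (edgeR), namely Adcy5, Adcy10, Gnal, Gng7, Pde10a, Camk4, Penk, Arpp19 and Ppp1r1b. Their log2 fold changes were between 0.67 for Camk4 and 0.98 for Penk, in the fit that called 6.9% of all genes. Because of how the genes were taken, this is no tally of the lists. With the striatal and myelin covariates Gnal was at 0.14, Arpp19 at 0.06, Ppp1r1b at 0.01, Camk4 at 0.04 and Penk at 0.04. Adcy10 at 0.69, Rapgef4 at -0.16 and Akap13 at -0.08 were also nearer 0 than in the main fit. Farther from 0 than in the main fit were Sik1 at -0.48, Dio2 at -0.28 and Prkar1b at 0.18. Gnal, Pde10a, Arpp19 and Ppp1r1b kept a value above 0 without saline males 9 to 12, and Adcy5, Gng7, Camk4 and Penk did not.

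**Figure D5:**
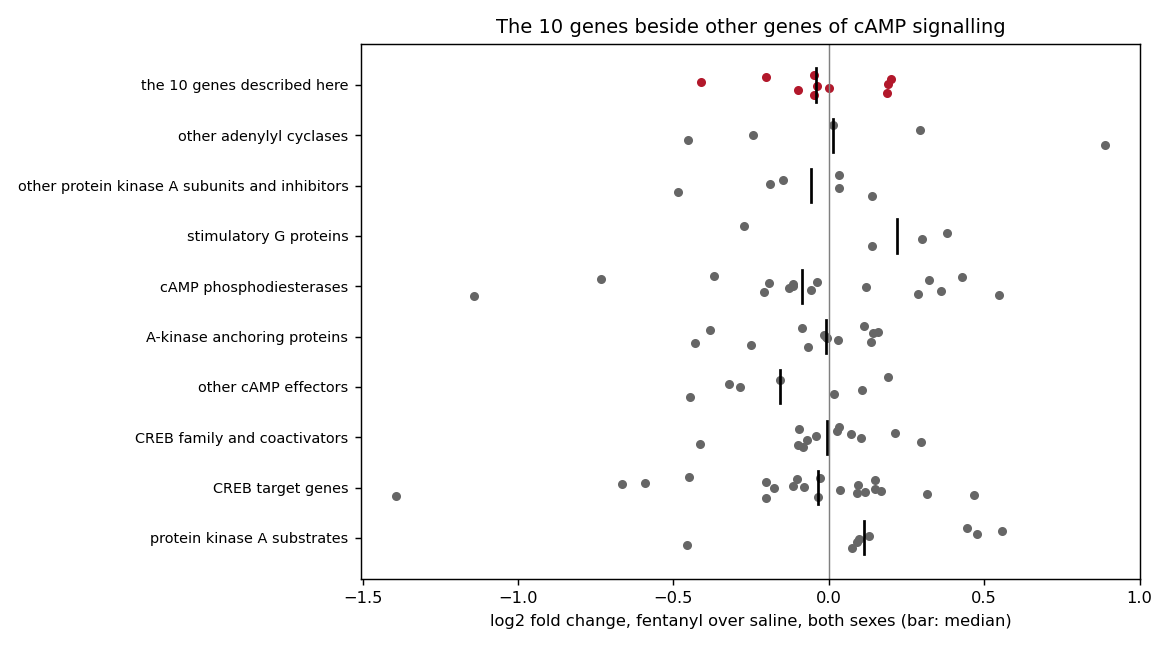
Log2 fold changes (x axis) of fentanyl against saline rats, both sexes, for the genes of each of the 9 pathway lists and the 10 genes described. Points are genes and bars are medians, which lie between -0.157 and 0.22, and Adcy10, at 0.89, is the cyclase farthest above it.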

How the data were processed

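RNA-seq libraries of tissue labelled as central amygdala from 16 rats were read from a table of deposited counts, whole numbers for each of 33294 gene symbols with no normalization, of which 5345 had no count. Trizol extraction and selection of poly(A) RNA are stated in the labels. Build rn7 and the tools Trimmomatic, STAR, HTSeq and DESeq2 are named in the submitters' processing notes. Which annotation and strand setting made the counts is not given in the sources used here. Columns were matched to samples by library name.

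The counts were fitted in R 4.3.3 with edgeR 4.0.16 (TMM factors, filterByExpr with the 4 groups at a minimum of 0.603 CPM, robust quasi-likelihood fit), with sex as a term over both sexes and as contrasts of a 4-group fit for males, females and their difference. The last 3 share 1 estimate of the spread. Benjamini-Hochberg adjustment covered the 17856 genes tested. The 10 genes were chosen by name and all are reported, and from each pathway list the gene with the smallest p and the most abundant one are named. Of the 3 genes most like each of the 10, some are not reported here. Genes, lists and tests were chosen with earlier results of these data known. Log2 CPM for correlations used a prior count of 2. Standard errors were derived from each gene's F statistic. Steps were tested on simulated counts. Alternatives were RLE factors, no filter, DESeq2 1.42.0, limma 3.58.1 voom with sample quality weights, a replicate block, no sex term, striatal and myelin list means as covariates, saline males 1 and 2 or 9 to 12 left out, and each library left out in turn. Promoter windows and gene overlaps came from RefSeq tables of GRCr8. The 10 genes had 46 to 12860 counts a library.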

Additional observations from a re-analysis of the deposited data

Results flagged for a closer look

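In the 6 fentanyl males or 6 saline males, 1 library stood apart from the others of its group by Dixon's test for 4 of the 20 sets of values (10 genes in each group), by the ratio of its gap to the group's range. Chance marks about 1 in 20 groups. Adcy1 was lowest in fentanyl male replicate 2 at 3.31 CPM (ratio 0.642), as were Prkar1a at 287 CPM (0.735) and Prkar2b at 108 CPM (0.73) in the same library. Prkaca was highest in fentanyl male replicate 1 at 143 CPM (0.652). Without fentanyl male replicate 2, Adcy1 averaged 29.8 ± 6.32 CPM in the other 7 fentanyl libraries (SD).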

How the results depend on the processing

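Genes called with both sexes together were 14, and 87 with DESeq2, 1031 with voom, 1226 without saline males 1 and 2, 4 without saline males 9 to 12, and 9 to 29 when each library was left out (29 without saline male replicate 2). In males they were 7, and 43, 87, 71 and 955 under the same alternatives, and 4 to 9. In females they were 0, and 20 with DESeq2, 14 without saline males 1 and 2, 495 without 9 to 12, and 0 to 5. For the exposure effect in females minus males they were 0, and 4 with DESeq2, 2859 without 9 to 12, and 0 to 5. Of the 10 genes, 2 were called over both sexes with voom and 2 without saline males 1 and 2. Without saline males 9 to 12, 1 was called in males, 1 in females and 3 for the difference. Leaving out each library called 0. The causes were not tested.

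Log2 fold changes over both sexes turned sign as follows. Prkacb was -0.0022 with RLE factors and with DESeq2 and -0.0041 with no sex term. With voom Adcy1 was 0.49, Creb1 0.086 and Map2 0.13. With striatal and myelin covariates Adcy2 was 0.15, Adcy8 0.28, Adcy9 -0.066, Prkaca 0.089, Prkar1a 0.014, Prkar2b -0.012, Adcy5 -0.052, Pkib 0.36, Gng7 -0.13, Pde10a -0.020 and Map2 0.091. Without saline males 1 and 2 Adcy1 was 0.17. Without 9 to 12 Adcy2 was 0.067, Adcy3 -0.027, Adcy8 0.074, Adcy9 -0.091, Prkaca 0.098, Prkacb -0.11, Prkar2b -0.077, Adcy5 -0.077, Pkib 0.081, Gng7 -0.063, Camk4 -0.054 and Penk -0.12.

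In males voom gave 0.11 for Prkacb and 0.012 for Creb1. The covariates gave Adcy2 0.25, Adcy8 0.43, Prkaca 0.019, Prkacb 0.10, Prkar1a 0.042 and Prkar2b -0.063. Prkacb was 0.070 without saline males 1 and 2. Without 9 to 12 Adcy1 was -0.40, Adcy2 0.61, Adcy3 -0.40, Adcy8 0.84, Adcy9 -0.38, Prkaca 0.046, Prkar1a 0.040 and Prkar2b -0.56. In females the covariates gave Adcy3 -0.097, Adcy9 -0.25 and Prkacb -0.073.

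With each library left out, ranges that crossed 0 over both sexes were -0.16 to 0.28 for Adcy1, -0.044 to 0.087 for Prkacb, -0.11 to 0.035 for Creb1, -0.020 to 0.12 for Prkar1b and -0.12 to 0.021 for Map2. In males they were -0.15 to 0.066 for Adcy2, -0.026 to 0.25 for Adcy3, -0.15 to 0.017 for Prkacb, -0.11 to 0.013 for Prkar1a, -0.11 to 0.17 for Prkar2b and -0.054 to 0.057 for Creb1. In females they were -1.35 to 0.95 for Adcy1 and -0.56 to 0.27 for Creb1. Where 1 female was left in a group, it was assumed to vary like the other groups.

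The labels do not say what the replicate numbers mark, and the profiles of the males showed no clear pairing by them. The deviations of same-numbered libraries correlated at -0.0694 to 0.209, over 0.1 in 2 of 6 pairs, and 1 of 6 was closest to its own number. A pairing that leaves little trace in the profiles could not be seen this way. With the replicate number as a block 7 genes were called over both sexes and 3 in males, 0 of the 10 were called, Adcy1 was at 0.023 and Adcy10 at 0.88 (adjusted p = 0.283, edgeR).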
